A study of Nicotiana tabacum with 12 samples.

Results

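A group of 123 gene models in tobacco roots was more abundant in both groups whose code carries a T than in the matching groups without it. They were picked from the 25273 models of the deposited table by a rule on their own values, so their differences with T describe the choice and are not a test of it. Abundance was given in FPKM (fragments per kilobase of transcript, scaled by the authors to the mapped fragments of the library). The rule asked for a 12-library mean of at least 5 and under 1000 FPKM. It asked for a mean difference of at least 1 in log2(FPKM + 1) between TWTR and WTR and again between TCR and CR, with no overlap between the libraries of either pair. It also held CR minus WTR and TCR minus TWTR strictly between -1 and 1. Within these limits the CR and WTR stems of the codes could still differ, and low FPKM could differ by a larger ratio.

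The study is titled as one on an Ntlht1 mutation and tolerance of low nitrogen in Nicotiana tabacum. Messenger RNA of roots was sequenced in 12 libraries, 3 in each of the groups coded TCR, CR, TWTR and WTR. All 12 carry the same text, which tells of an NtLHT1 mutant kept in hydroponics with LN solution for 15 days, on plants raised in a cycle of light and dark on one seedling fertilizer. The labels give no genotype, allele, clone, nitrogen supply or pooling for any single code, so the codes are used as they stand and the letter T is read only as a prefix shared by TCR and TWTR. Nothing says that replicates were separate plants, and the spread between them may be technical.

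LHT1 is a transporter of the plasma membrane that, in Arabidopsis, takes amino acids into root and leaf cells. Nitrogen supply is known to change many transcripts of plant roots, among them those for uptake of nitrate, ammonium and amino acids and for their assimilation. Tobacco is an allotetraploid, so most genes have a close copy from the other parental genome, and reads of such copies may be shared out between models, and the file does not say how. The identifiers (Nitab4.5, a scaffold number and a gene number) are not paired with names in the file, and 0 lines of the RefSeq gene table of assembly ASM71507v2 hold one. The members are therefore described by identifier, with no name, role, pathway or sequence. Whether NtLHT1 is among them, and whether root marker genes bear out the tissue label, was not tested.

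Relative depth, read from the commonest ratio of low values, was 0.913 to 1.15 times that of CR replicate 1 in the other libraries except CR replicate 2, at 1.82 times. Absolute depth is unknown. The rule applied without CR replicate 2 again found 123 models, 115 of them the same.

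The rule narrowed the table in steps. The level window held 15588 models, of which 635 were higher by at least 1 in TWTR than in WTR and 517 in TCR than in CR. Both differences reached 1 in 160 models, and 145 of those also had no overlap in either pair. The limit on CR minus WTR left 127 and that on TCR minus TWTR left 123. A mirror of the rule, with T lower by at least 1 in both stems, found 191 models.

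**Figure D1:**
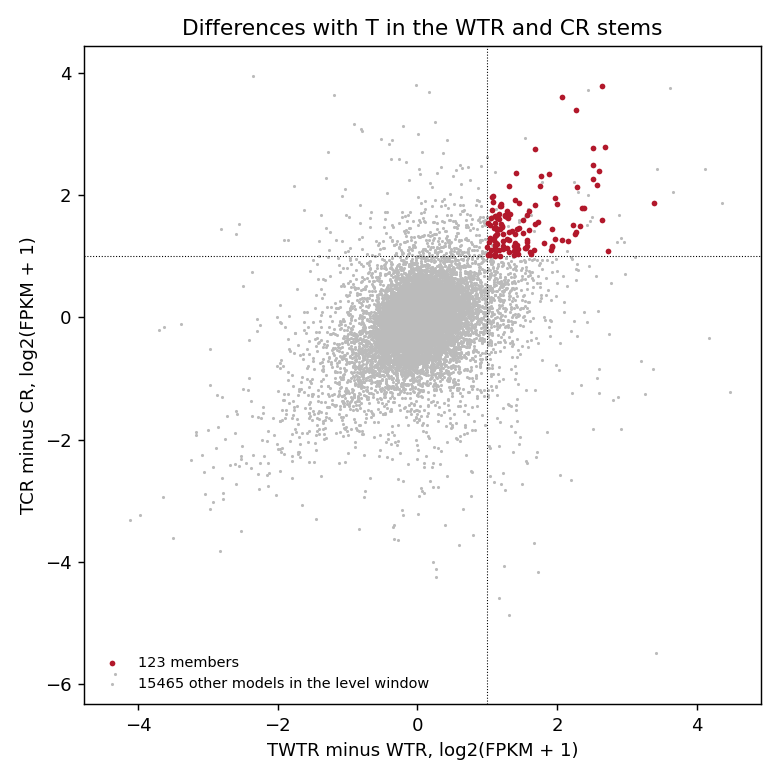
Each point is a gene model in the level window, placed by its TWTR minus WTR difference (horizontal) and its TCR minus CR difference (vertical), both in log2(FPKM + 1). The 123 members (red) lie above 1 on both axes (dotted lines) because the rule put them there, and most of the 15465 other models (grey) lie near 0 on both.

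The models nearest the threshold show how narrow the limit is. Nitab4.5_0004599g0080, just inside, had 14.34, 13 and 13.74 FPKM in TCR against 6.18, 5.09 and 5.62 in CR, and 9.3, 12.39 and 12.43 in TWTR against 4.42, 4.62 and 6.58 in WTR. Its TWTR minus WTR difference was 1.001. Nitab4.5_0000355g0100, also just inside, had a TCR minus CR difference of 1.002. Of the models that missed only 1 of these thresholds, Nitab4.5_0003280g0060 reached 0.9905 in TWTR minus WTR, with 1.64 in TCR minus CR. Nitab4.5_0002632g0010 reached 0.9892 in TCR minus CR, with 1.204 in TWTR minus WTR. A further 24 models met everything except the mean of 5 FPKM, 6 overlapped in 1 pair or both, 13 missed only the limit on CR minus WTR and 4 only that on TCR minus TWTR.

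As a group the members took a share of all FPKM that was higher in the libraries with T, as the rule requires of each of them. They held 1.28% to 1.3% of the FPKM sum in TCR and 0.443% to 0.453% in CR. In TWTR they held 1.45% to 1.49%, and in WTR 0.54% to 0.545%. The libraries of one group lay close together in this share, and the groups did not overlap. The median member stood at 44.14 to 47.25 FPKM in the TCR libraries and 17.06 to 19.04 in the CR libraries, and at 53.82 to 58.4 in the TWTR libraries and 20.15 to 20.47 in the WTR libraries.

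**Figure D2:**
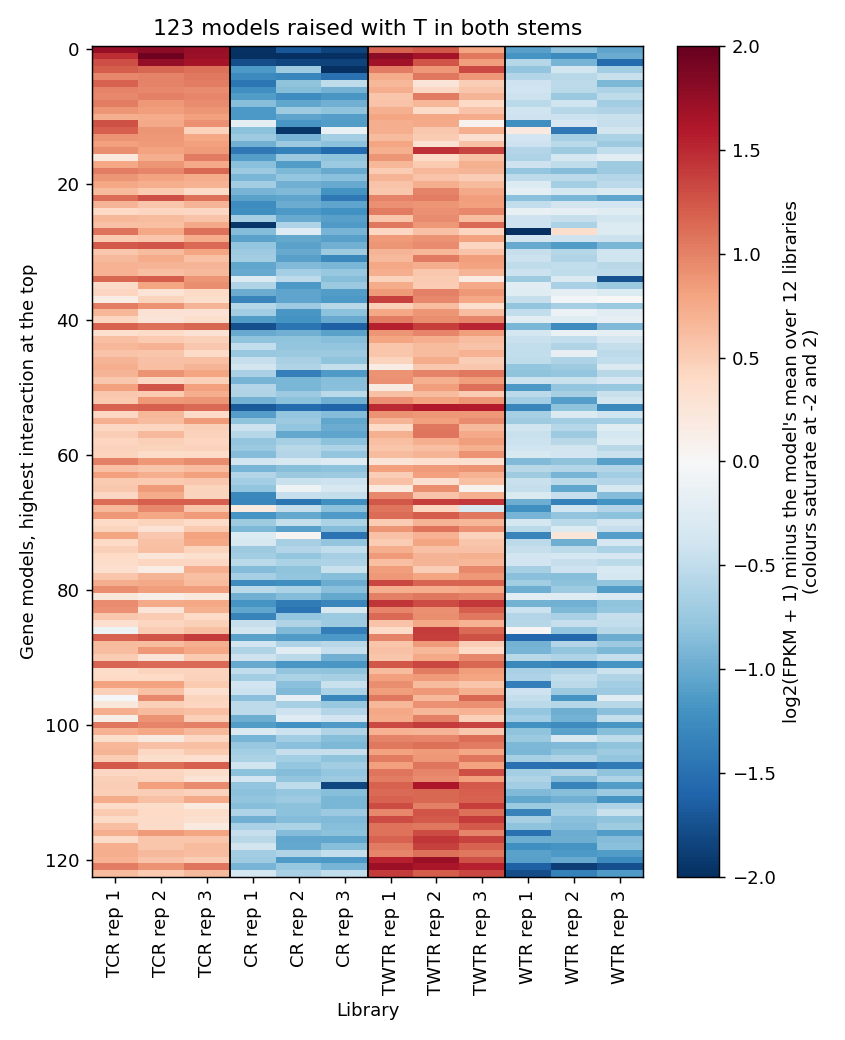
Rows are the 123 members, ordered from the highest to the lowest interaction, columns are the 12 libraries by group, and colour gives log2(FPKM + 1) minus the model's mean over the libraries. TCR and TWTR libraries are red and CR and WTR libraries blue in nearly every row, with TCR and CR furthest apart at the top and TWTR and WTR furthest apart at the bottom.

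Most members' differences lay between 1 and 2 on the log2 scale, and 27 reached 2 in one stem or the other. The median member was higher by 1.39 in TWTR minus WTR (quartiles 1.14 and 1.77, highest 3.39), and the median over all 19929 models tested was 0.04. In TCR minus CR the median member was higher by 1.45 (quartiles 1.18 and 1.75, highest 3.79), and the median of all models tested was -0.01. A difference of at least 2 was seen in 21 members between TWTR and WTR, in 16 between TCR and CR, and in 10 in both. In 61 members the smaller of the differences was under 1.2.

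By limma with Benjamini-Hochberg adjustment at 0.05 over all models tested, 121 members were called higher in TWTR than in WTR and 0 lower, where 20.4% and 14.9% of all models were called higher and lower. All 123 were called higher in TCR than in CR and 0 lower, with 19.6% and 22.1% of all models called in those directions. The rule used both contrasts, so nothing is read from these counts. The members not called in TWTR minus WTR were Nitab4.5_0001780g0050 and Nitab4.5_0004135g0030, which are also the members with the widest spread between libraries.

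Since the rule used every library, the same rule was also applied to 8 libraries, without 1 replicate number in each group, and the differences were read in the 4 libraries left out. This check was added after the data had been seen. It describes how values repeat within the same groups and is no independent support. Without replicate 1 the rule chose 125 models, and in the left-out libraries all 125 were higher with T in both stems and 88 (70.4%) by at least 1 in both. Of the 15579 models in the level window, 0.95% reached 1 in both in those 4 libraries. Without replicate 2 it chose 115 models, of which 115 were higher with T in both stems and 81 (70.4%) by at least 1, against 1.17% of the window.

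Without replicate 3 it chose 117 models, of which 116 were higher in both stems and 82 (70.1%) by at least 1, against 1% of the window. The exception, named after its value was seen, was Nitab4.5_0000498g0070, with a TCR minus CR difference of -0.10 in the left-out libraries and 2.32 in the others. It is not among the 123, since its libraries overlap. The median differences in the left-out libraries were 1.34, 1.42 and 1.32 in the WTR stem and 1.34, 1.40 and 1.47 in the CR stem, for replicates 1, 2 and 3 in that order. Of the models chosen without replicates 1, 2 and 3, 112, 99 and 104 were among the 123 members. The left-out libraries come from the same groups and may be technical repeats. The shares therefore describe how values repeat within these groups and are no independent support. With 1 library a group there is no spread to test against.

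**Figure D3:**
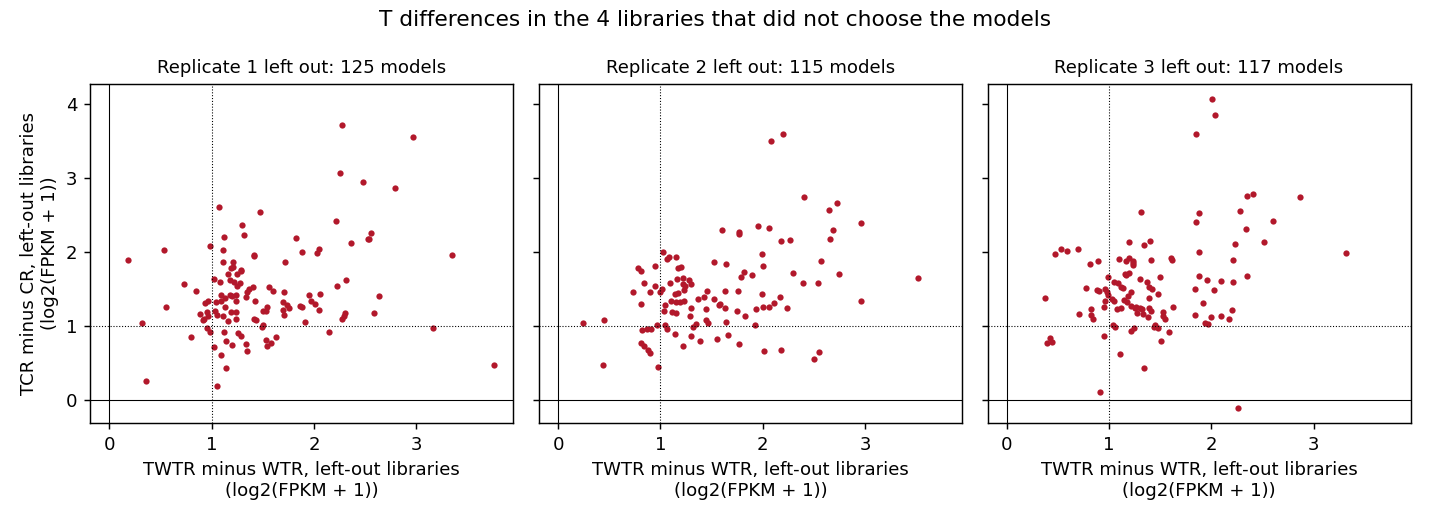
Each panel leaves out the 4 libraries of 1 replicate number, chooses models by the rule in the other 8, and plots those models' differences in the 4 libraries left out, TWTR minus WTR across and TCR minus CR upwards, in log2(FPKM + 1). Nearly all points lie above 0 (solid lines) on both axes and 70.1% to 70.4% of them above 1 (dotted lines) on both. The libraries left out are of the same groups and may be technical repeats, so the panels are a description.

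The rule asked for no overlap in either pair, so a gap between single libraries was fixed by the choice of members. Its demand on the mean differences also makes wide gaps likely, and their size is given as a description. The ratio of the lowest TCR library to the highest CR library had a median of 2.37 over the members, was at least 2 in 90 of them and was lowest at 1.15. For the lowest TWTR and the highest WTR library the median was 2.24, with 84 members at 2 or more and a lowest ratio of 1.06. In 121 members all 6 libraries with T lay above all 6 without it. The rule's limits already put both group means with T above both without it, so this count is nearly fixed by the choice of members. The exceptions, named after their values were seen, were Nitab4.5_0000007g0020 and Nitab4.5_0002995g0020. In the first, TWTR replicate 3 (14.43 FPKM) lay below CR replicate 1 (20.81 FPKM). In the second, TCR replicate 1 (24.34 FPKM) lay below WTR replicate 1 (26.76 FPKM).

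Levels ranged widely. The members' 12-library means ran from 5.10 to 706.8 FPKM with a median of 35.9, against a median of 24.7 over the level window. Members were found at 100 FPKM or more in 32 cases (26% of members, 13.8% of the window) and below 10 FPKM in 19 (15.4%, against 19.1% of the window). The log2(FPKM + 1) scale shrinks differences of low values, so level bears on which models the rule can choose. No excess of abundant members is read from these values. The median differences were 1.32 and 1.54 below 10 FPKM and 1.28 and 1.46 at 100 FPKM or more, for TWTR minus WTR and TCR minus CR in that order. The rule cut off every difference below 1, which draws such medians together. Whether the differences depend on level was not tested.

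The most abundant member, Nitab4.5_0001618g0080, was at 949.45, 948.76 and 965.02 FPKM in TCR against 415.17, 485.06 and 499.04 in CR. It was at 996.16, 830.61 and 1006.39 FPKM in TWTR against 487.66, 455 and 442.9 in WTR. The groups with T lay clear of the others, and the stems overlapped with T and without it. Its differences were 1.03 in TWTR minus WTR (SE 0.0836) and 1.04 in TCR minus CR (SE 0.0836), which also makes it one of the members whose differences were closest to each other.

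Nitab4.5_0001800g0020, the next in abundance, was at 663.73, 661.82 and 692.03 FPKM in TCR against 311.86, 322.8 and 318.59 in CR. It was at 885.74, 909.19 and 866.57 FPKM in TWTR against 328.11, 356.78 and 332.46 in WTR. With T every TCR library lay below every TWTR library, by far more than the CR libraries lay below the WTR libraries. The ratio of mean FPKM was 2.12 for TCR over CR and 2.62 for TWTR over WTR.

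The other member with nearly equal differences was Nitab4.5_0000173g0300, at 15.31, 19.09 and 14.3 FPKM in TCR against 5.49, 9.47 and 7.94 in CR, and at 11.86, 20.22 and 10.69 in TWTR against 7.04, 4.45 and 7.92 in WTR. Its libraries scattered more, and its differences of 1.01 and 1.01 came with an SE of 0.258 each.

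The strongest member by the smaller of its differences was Nitab4.5_0002145g0030. It was at 43.18, 43.8 and 41.98 FPKM in TCR against 5.08, 5.71 and 5.41 in CR, and at 53.95, 58.4 and 57.58 in TWTR against 6.91, 10.22 and 7.02 in WTR. Each group with T was several times its counterpart, with ratios of mean FPKM of 7.96 for TCR over CR and 7.04 for TWTR over WTR. The log2 differences were 2.78 and 2.69 (SE 0.116 each).

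The members with the largest TCR minus CR differences were nearly silent in CR. Nitab4.5_0000790g0050 was at 14.01, 19.76 and 16.91 FPKM in TCR against 0.28, 0.34 and 0.24 in CR, and at 17.66, 16.09 and 10.19 in TWTR against 1.38, 1.24 and 1.73 in WTR. The libraries with T overlapped between stems, and every CR library lay below every WTR library. Nitab4.5_0001269g0060 was at 13.85, 14.37 and 13.79 FPKM in TCR against 0.13, 0.36 and 0.23 in CR, and at 9.07, 9.5 and 6.66 in TWTR against 1.08, 1.48 and 1.13 in WTR.

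In this model the 4 groups did not overlap at all. The ratios of mean FPKM for TCR over CR were 58.9 in Nitab4.5_0000790g0050 and 58.3 in Nitab4.5_0001269g0060, and for TWTR over WTR they were 10.1 and 6.84. On the log2(FPKM + 1) scale, which understates changes of low values, the TCR minus CR differences were 3.79 and 3.60. They moved to 5.45 and 5.43 with a pseudocount of 0.1 and to 2.04 and 1.86 with one of 5. 

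The members with the largest TWTR minus WTR differences showed the opposite balance. Nitab4.5_0001134g0090 was at 16.51, 14.97 and 16.94 FPKM in TCR against 3.51, 4.07 and 3.51 in CR, and at 27.02, 25.64 and 24.25 in TWTR against 1.76, 1.33 and 1.53 in WTR. Nitab4.5_0000227g0050 was at 101.15, 93.88 and 102.67 FPKM in TCR against 50.85, 41.34 and 46.11 in CR, and at 172.91, 152.43 and 166.17 in TWTR against 18.43, 25.07 and 29.1 in WTR. In both, WTR was lowest, then CR, then TCR, with TWTR highest, with no overlap between any groups. Their TWTR minus WTR differences were 3.39 and 2.73, and their TCR minus CR differences 1.87 and 1.09.

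**Figure D4:**
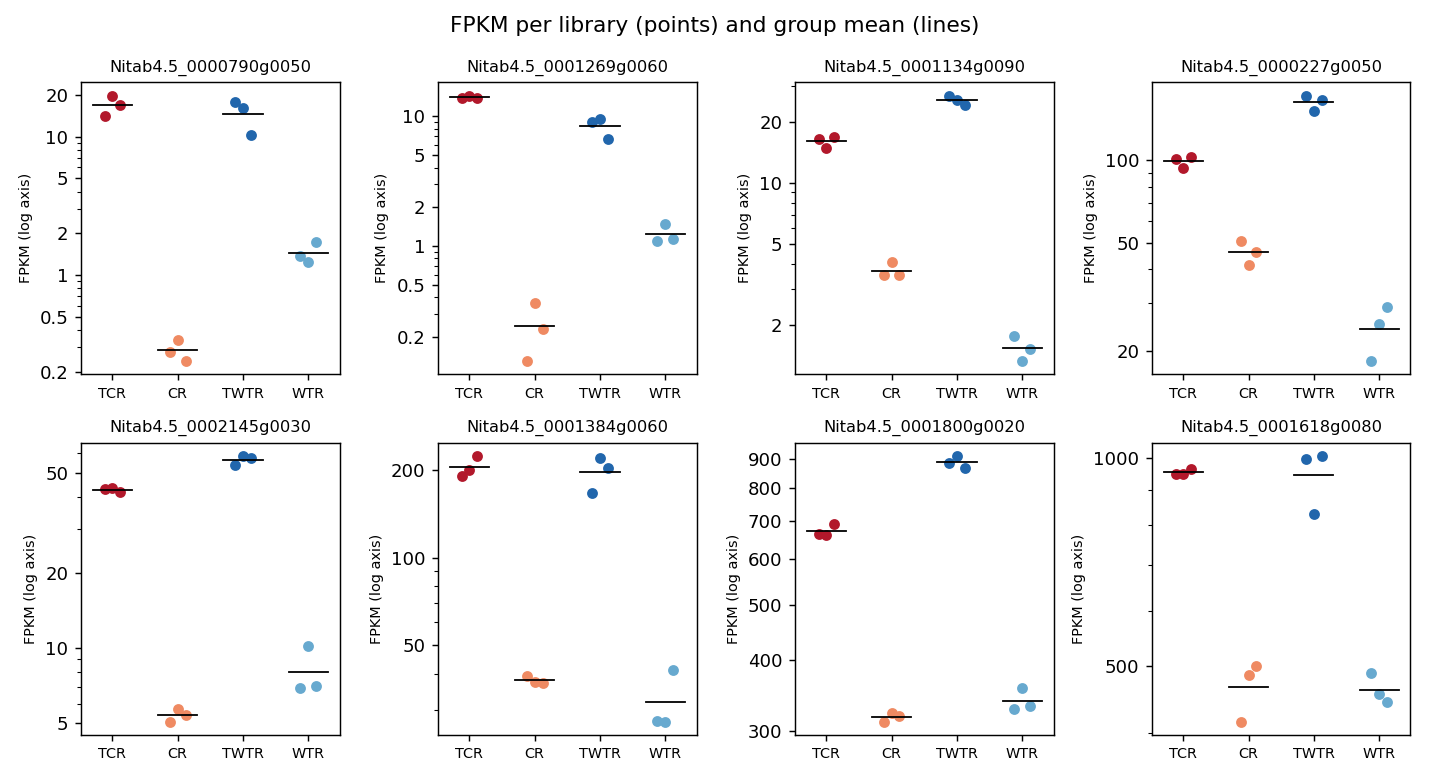
FPKM on a log axis in every library (points) with the group mean (line) for 8 members. In Nitab4.5_0000790g0050 and Nitab4.5_0001269g0060 CR is the lowest group, in Nitab4.5_0001134g0090 and Nitab4.5_0000227g0050 WTR is, and in Nitab4.5_0001618g0080 the stems overlap.

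The size of the T difference was compared between stems as TCR minus CR less TWTR minus WTR, called the interaction here. Over the members it had a median of 0.02, with 66 above 0 and 57 below, and ran from -1.64 to 1.53. In 49 members it was under 0.25 in size and in 7 at least 1. By limma at an adjusted p of 0.05, 26 members were called higher (21.1%, where 11.5% of all models tested were) and 23 lower (18.7%, against 17.8%), and 74 were not called. The interaction is made of the contrasts that chose the members, so these counts are a description. The count of 26 came to 17 without TWTR replicate 3 and to 17 without WTR replicate 1. The share of all models called was not computed without these libraries, so no excess of members is read from them.

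Members with a called interaction were split by its sign, and the differences in each class are given as a description. In the 26 called higher, the TCR minus CR difference had a median of 1.72 and the TWTR minus WTR difference one of 1.17, and CR lay below WTR in all 26. TCR lay above TWTR in 18 of them and below in 8. In the 23 called lower, the TCR minus CR median was 1.26 and the TWTR minus WTR median 1.98, and TCR lay below TWTR in 21. CR lay above WTR in 18 of these and below in 5. The sign of the interaction fixes which T difference is the larger in each member, and so the order of the medians. It also makes such an arrangement of the stems likely by its construction.

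The rule held the stem differences within limits, and inside these more members lay below 0 than above. CR minus WTR had a median of -0.19 over the members and 0.04 over all models tested, and 84 members were lower in CR while 39 were higher. Limma at an adjusted p of 0.05 called 46 members (37.4%) lower in CR than in WTR and 12 (9.76%) higher. Of all models, 16.6% and 23.5% were called lower and higher. TCR minus TWTR had a median of -0.22, against -0.01 over all models tested, with 78 members lower in TCR and 45 higher. Here 42 members (34.1%) were called lower and 8 (6.5%) higher. Of all models, 6.69% and 7.00% were called in those directions, so the higher share was about that of all models.

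The rule used these contrasts too, and the contrasts with T share libraries with them, so the counts are given as a description. The 8 members called higher in TCR than in TWTR came to 3 without TCR replicate 1, TCR replicate 2 or TWTR replicate 3, and to 5 without TCR replicate 3. The 12 called higher in CR than in WTR came to 7 with quantile normalization. Here too the shares of all models called were not computed under the alternatives.

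By group means, TWTR was the highest group in 78 members and TCR in 45, and CR was the lowest in 84 and WTR in 39. The commonest arrangement had TWTR highest and CR lowest, in 58 members. TCR was highest and CR lowest in 26, TWTR highest and WTR lowest in 20, and TCR highest and WTR lowest in 19. With quantile normalization CR was the lowest group in 98 members.

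**Figure D5:**
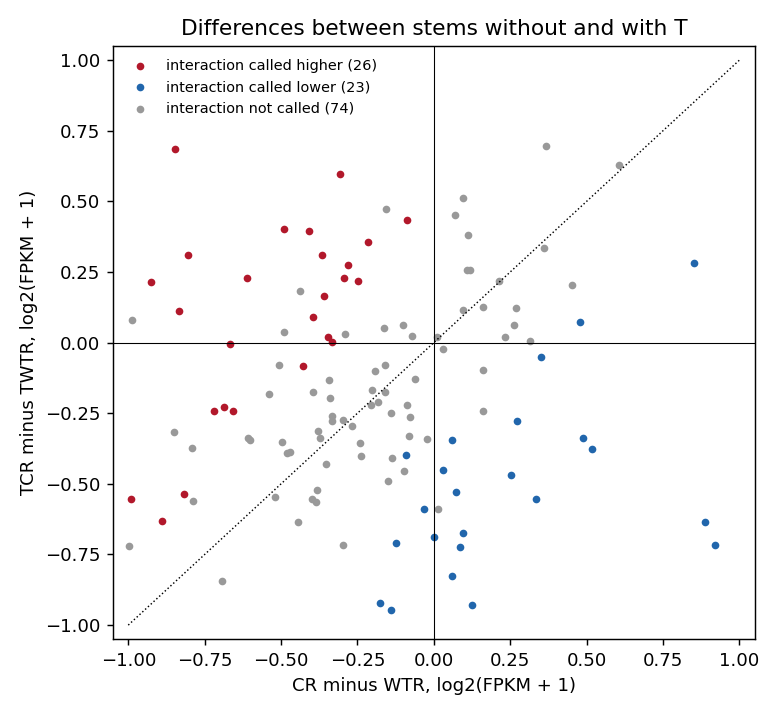
Each point is a member, placed by CR minus WTR (horizontal) and TCR minus TWTR (vertical) in log2(FPKM + 1), and coloured by whether limma called its interaction higher, lower or not. The 26 called higher lie left of 0 and the 23 called lower mostly below 0. On the dotted diagonal the interaction is 0, and the uncalled 74 lie on both sides of it, with interactions from -0.60 to 1.07.

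The members at the limits of the stem differences were followed by library. The lowest CR minus WTR difference, -0.997, was in Nitab4.5_0004194g0100, at 10.35, 13.05 and 12.17 FPKM in TCR against 3.14, 3.97 and 3.62 in CR, and at 25.64, 19.06 and 16.53 in TWTR against 6.45, 8.9 and 9.24 in WTR. The CR stem was below the WTR stem with T as well as without. The highest CR minus WTR difference, 0.92, was in Nitab4.5_0000227g0050, described above.

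Nitab4.5_0000723g0230 had the lowest TCR minus TWTR difference, -0.95, with 89.77, 89.14 and 86.11 FPKM in TCR against 34.79, 36.88 and 36.63 in CR, and 171.18, 161.52 and 181.4 in TWTR against 43.06, 37.92 and 38.7 in WTR. The stems were set apart mainly in the libraries with T. Nitab4.5_0000005g0450 had the highest, 0.70, with 25.7, 27.09 and 21.21 FPKM in TCR against 9.02, 7.38 and 5.7 in CR, and 15.68, 16.3 and 12.57 in TWTR against 6.35, 8.89 and 2.6 in WTR. CR and WTR overlapped in this model, and TCR and TWTR did not.

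Within the groups without T the members varied somewhat more than the level window as a whole, which includes them. The median SD of log2(FPKM + 1) between libraries was 0.0798 in TCR, 0.134 in CR, 0.11 in TWTR and 0.115 in WTR over the members. Over the window it was 0.0838, 0.111, 0.119 and 0.0961 in the same groups. These are descriptions with no test, and members are at their lowest levels in CR and WTR. The rule's demand for no overlap also bears on the members' spread.

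The widest spread was in Nitab4.5_0001780g0050, at 10.39, 8.17 and 10.53 FPKM in TCR against 1.94, 3.46 and 1.8 in CR, and at 6.17, 7.07 and 6.18 in TWTR against 0, 5.81 and 3.42 in WTR. It is the 1 member listed at 0 in a library, WTR replicate 1. Its TWTR minus WTR difference of 1.26 came to 0.44 without that library. Nitab4.5_0004135g0030 followed, at 73.94, 58.9 and 44.14 FPKM in TCR against 17.41, 7.48 and 28.35 in CR, and at 52.85, 46.46 and 53.11 in TWTR against 36.28, 11.16 and 24.21 in WTR.

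Position along the scaffolds was the property of the members that the rule did not use. The 123 members lay on 111 scaffolds, of which 100 held 1 member and 11 held 2 or more. Next to another member in the order of identifiers were 13 members, in 6 runs, of which 9 members in 4 runs differed by exactly 10 in the gene number. Other runs can be further apart, as Nitab4.5_0000280g0050 and Nitab4.5_0000280g0120 are, with no model listed between them. No matching count was made for other models, so clustering of the members is not read from the runs. With a pseudocount of 5 in the rule, 5 members lay in runs. Neighbours can be copies of one gene that share reads, which the table does not show.

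The longest run was of 3 models. Nitab4.5_0001384g0060 was at 190.63, 200.19 and 222.51 FPKM in TCR against 39.2, 37.35 and 37.04 in CR, and at 166.53, 219.52 and 203.28 in TWTR against 27.4, 27.36 and 41.22 in WTR. On one side, Nitab4.5_0001384g0050 was at 39.57, 39.08 and 41.96 FPKM in TCR against 19.04, 16.06 and 16.82 in CR, and at 37.38, 46.42 and 35.84 in TWTR against 12.58, 16.41 and 14.85 in WTR. On the other, Nitab4.5_0001384g0070 was at 18.53, 16.16 and 16.57 FPKM in TCR against 2.19, 3.96 and 5.06 in CR, and at 12.63, 9.34 and 11.1 in TWTR against 5.49, 5.03 and 3.63 in WTR.

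The middle model of the run stood highest in all 12 libraries, with ratios of mean FPKM of 5.4 for TCR over CR and 6.14 for TWTR over WTR. For Nitab4.5_0001384g0050 the ratios were 2.32 and 2.73, and for Nitab4.5_0001384g0070 they were 4.57 and 2.34. The pattern ended with the run: the next model, Nitab4.5_0001384g0080, had differences of 0.26 in TCR minus CR and 0.48 in TWTR minus WTR. On the other side, Nitab4.5_0001384g0030 was listed at 0 in 9 of 12 libraries.

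Models next to members but not members themselves numbered 194, of which 146 were tested. By limma at an adjusted p of 0.05, 42 of the 146 (28.8%) were called higher in TWTR than in WTR and 18 (12.3%) lower, where 20.4% and 14.9% of all models tested were. In TCR minus CR, 30 (20.5%) were called higher and 37 (25.3%) lower, where 19.6% and 22.1% of all models were, so the higher share was about that of all models. Both calls were made in 19 (13%), where 8.2% of all models tested had both. A difference of at least 1 in both stems was seen in 3 of the neighbours (2.05%) and in 0.968% of all models tested. The neighbours' median differences were 0.09 in TWTR minus WTR and -0.03 in TCR minus CR, with 0.04 and -0.01 over all models tested. No test was made of these shares.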

How the data were processed

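The authors extracted RNA with TRIzol, sequenced it on a DNBSEQ-T7 instrument, cleaned reads with fastp, aligned them with STAR and assembled transcripts with StringTie2 and Cuffcompare, per the labels' protocols. STAR is also named in the submitters' processing notes. The program that made the abundances, its settings, the genome build and all versions are not given in the sources used here. The values are the authors' deposited FPKM, per the file headers, for 25273 models. FPKM carries no fragment totals, so a few abundant transcripts can shift the rest of a library.

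From these, log2(FPKM + 1) was computed. Models with a 12-library mean of at least 1 FPKM (19929) were fitted with limma 3.58.1 in R 4.3.3, with 4 group means, trend and robust variances, and Benjamini-Hochberg adjustment within each contrast. All 123 members passed that filter. The series' design text names DESeq2, which needs counts and was not used. The fit and the rule were tried on simulated data with planted changes. For the rule, changes well above its threshold were planted in models of middle level and small spread. That trial does not cover members near the threshold, at low levels or with wide spread.

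The members, the lists and the naming rule were chosen with earlier results of these data known. Gene lists by product name could not be used. Among members, the naming rule took the extremes of mean level, of each difference with T, of the smaller difference, of the interaction, of the stem differences and of the spread, those with the closest differences, those nearest the threshold and the longest run. Alternatives were other pseudocounts, filters and scalings, fits of 2 groups, the replicate number as a term, and each library left out.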

Additional observations from a re-analysis of the deposited data

Results flagged for a closer look

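In 7 of the named members limma's test of the difference between stems (TCR minus CR against TWTR minus WTR) passed at an adjusted p of 0.05. The rule that chose the members used both contrasts, and Nitab4.5_0001269g0060, Nitab4.5_0000790g0050, Nitab4.5_0000227g0050 and Nitab4.5_0001134g0090 were named for the highest or lowest interaction itself. These values are therefore a description and support no difference between stems. The interaction was 1.533 in Nitab4.5_0001269g0060, 1.14 in Nitab4.5_0000790g0050 and 0.902 in Nitab4.5_0001384g0070, where the CR stem had the larger difference. It was -1.637 in Nitab4.5_0000227g0050, -1.525 in Nitab4.5_0001134g0090, -0.808 in Nitab4.5_0000723g0230 and -0.3063 in Nitab4.5_0001800g0020, where the WTR stem did.

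Each alternative reuses most of the libraries that chose and named these members, so calls that recur under them are no independent support. Over 20 alternatives the call was made in all 20 for Nitab4.5_0001269g0060 (0.759 to 2.76), Nitab4.5_0000227g0050 (-1.78 to -1.46), Nitab4.5_0001134g0090 (-1.88 to -0.95), Nitab4.5_0000723g0230 (-0.86 to -0.75) and Nitab4.5_0001800g0020 (-0.34 to -0.25). For Nitab4.5_0000790g0050 it was made in 19 (0.455 to 2.23) and ended with a pseudocount of 5. For Nitab4.5_0001384g0070 it was made in 8 of 20 (0.629 to 1.104): it ended with a pseudocount of 0.1, with no filter on low values, with the replicate number as a term, and without any one library of TCR, CR replicate 1 or 2, TWTR replicate 2 or 3, or WTR replicate 1 or 2.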

How the results depend on the processing

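The rule found 139 models with a pseudocount of 0.1 (115 of them among the 123), 91 with one of 5 (83 shared), 147 with a mean of at least 1 FPKM, 104 with at least 10 FPKM, and 112 to 120 under the other scalings. Leaving out single libraries gave 116 to 126 models, and leaving out 1 replicate number in every group, an alternative added after the data were seen, 115 to 125. On leaving out single libraries, the members called higher numbered 118 to 122 in TWTR minus WTR and 118 to 123 in TCR minus CR. Those called lower numbered 41 to 48 in CR minus WTR and 32 to 45 in TCR minus TWTR, and those called higher 9 to 12 and 3 to 11. The interaction was called higher in 17 to 23 and lower in 21 to 25. Members called higher in TCR minus TWTR numbered 5 with a pseudocount of 0.1, and those called higher in CR minus WTR 7 with quantile normalization. With a pseudocount of 5 in the rule, 5 members lay in runs. The cause of these moves was not tested. The share of all models called was not computed under any alternative, so the member counts given here stand without that background. With the replicate number as a block, 122 and 123 members were called higher in TWTR minus WTR and TCR minus CR, and 22 and 22 higher and lower in the interaction. Same-numbered libraries did not deviate together (correlations from -0.0888 to 0.0991 over 18 pairs, none over 0.1), so the numbers were not taken to pair the samples. Of 1116 values of named members under alternatives, 1071 moved by less than the spread between replicates. Of the other 45, 34 moved under a changed pseudocount, and none of the called values changed sign. Many of the 1116 could not move. Changed filters of the fit, fits of 2 groups and the replicate term leave every difference as it was. Leaving out a library of one stem leaves the T difference of the other stem as it was. The count of 1071 is therefore partly fixed in advance and is no measure of stability. Absolute depth is unknown, and what it limits was not tested. For the named members near 0 in CR the difference depended on the pseudocount.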
